A study of Mus musculus with 4 samples.

Results

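The 39 genes described here encode enzymes that add methyl groups to histone lysines (21 methyltransferases, also called writers) or remove them (18 demethylases, or erasers). They were chosen by name, and each name was matched exactly to the gene symbol of the quantified genes. All 39 were found among the 53379 genes, and all 39 were among the 19148 genes with enough reads to be tested. RNA came from DKO741, a *Terc*-/- line made from E14 mouse embryonic stem cells by targeting both alleles of *Terc*, the telomerase RNA gene. The line was kept in long-term culture and sampled at population doubling 100 (PD100, pre-ALT cells) and at population doubling 800 (PD800, post-ALT cells that keep their telomeres by the alternative lengthening pathway), with 2 libraries per group. Both groups carry the same deletion and come from 1 line, which limits them as a model: *Terc*+/+ cells were not analysed here, and the 2 libraries of a group, which the study describes as biological duplicates, are not said to come from separate cultures, so that p-values measure the spread between these libraries. The line was maintained on mouse fibroblast feeders, and feeder-free cells were taken for RNA.

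Methyl groups on histone tails mark the state of a gene. Methylation of H3K4 marks active promoters and enhancers, that of H3K36 and H3K79 marks transcribed gene bodies, and that of H3K9, H3K27 and H4K20 is found in silent or compacted chromatin, including the chromatin of telomeres and pericentromeres. Most writers share a SET domain and take the methyl group from S-adenosylmethionine, whereas DOT1L has a different fold. The LSD1 class of erasers uses flavin, and the larger JmjC class uses iron, oxygen and 2-oxoglutarate. In embryonic stem cells, the removal of H3K9 methylation by KDM3 and KDM4 enzymes is known to help maintain the pluripotent state.

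The expected counts of the 4 libraries, which are RSEM's estimates of the number of read pairs per gene, summed to between 32454121 and 38492149. In CPM, that is, counts relative to the scaled library size, a floor of 3 counts was worth 0.0743 to 0.0934, and it covers counting error only. *Terc* had a count of 1 in PD100 replicate 1 and 0 in the other 3 libraries. Mitochondrial genes took 15.4% and 11.01% of the counts at PD100 and 17.7% and 16.0% at PD800. Of 10 embryonic stem cell markers, 4 were higher at PD800 and none lower by edgeR's adjusted p (of all tested genes, 13.1% were higher and 15.4% lower), among them *Nanog* with a log2 fold change of 2.32 and *Esrrb* with 2.06. All 10 markers of primitive endoderm, an extraembryonic lineage, were lower at PD800, against the 15.4% of all tested genes, and their summed level was 463 and 455 TPM (transcript levels scaled for length) at PD100 and 41.9 and 41.5 TPM at PD800. None of these 10 was at 0 in any library, and *Foxa2* had a count of 1 in each PD800 library. Of the 9 fibroblast markers tested, 5 were lower (55.6%, against 15.4%), with a summed level of 13.8 and 13.7 TPM against 4.17 and 4.22 TPM, while *Lum* had 1 count in the 4 libraries together and *Dcn* was at 0 in PD800 replicate 2. These markers moved with the same contrast as every value below, and their part in the results was not tested. In bulk RNA, fewer cells of a type and less RNA per cell cannot be told apart.

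Most of the methylation genes did not pass the test between PD100 and PD800, and of the 10 that did, 1 changed by more than 2-fold. By edgeR's quasi-likelihood test at an adjusted p under 0.01, 10 of the 39 genes (25.6%) differed, against 28.5% of all tested genes. Higher at PD800 were 8 genes, namely *Kdm3a*, *Kdm3b*, *Kmt2c*, *Kdm4b*, *Smyd2*, *Kmt5c*, *Setd1a* and *Kdm5b*, which is 20.5% of the 39 against 13.1% of all tested genes. The 2 genes that were lower, *Kdm4c* and *Setd7*, are 5.13% of the 39, against 15.4% of all tested genes. With a fold change over 2 as a further condition, 1 gene passed (*Kdm3a*, higher) and none was lower, whereas 15.1% of all tested genes passed, 6.28% higher and 8.81% lower. The median log2 fold change was 0.07 over the 39 genes and 0.01 over all tested genes, and the median of its absolute value was 0.23 and 0.45. The CPM values of the 2 groups did not overlap for 28 of the 39 genes, but this was so for 73.7% of all tested genes. Without PD800 replicate 1, 5 genes were higher and 1 lower, and without PD800 replicate 2, 4 were higher and 1 lower, while calls over all tested genes went down to 13.9% and 14.5%. Without either PD100 library 5 of the 39 genes were lower, and calls over all tested genes went up to 42.7% without replicate 1 and 40.6% without replicate 2, so that the counts of the 39 genes moved together with those of all genes. Without PD100 replicate 1, *Kdm6a* (higher), *Smyd3*, *Ehmt1* and *Dot1l* (lower) passed as well, and without PD100 replicate 2, *Nsd1* and *Kdm1a* (higher), *Kmt2e*, *Setd2* and *Dot1l* (lower). *Kdm3a*, *Kdm3b*, *Kmt2c*, *Kdm4b* and *Kdm4c* passed in every setting that tested counts.

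**Figure D1:**
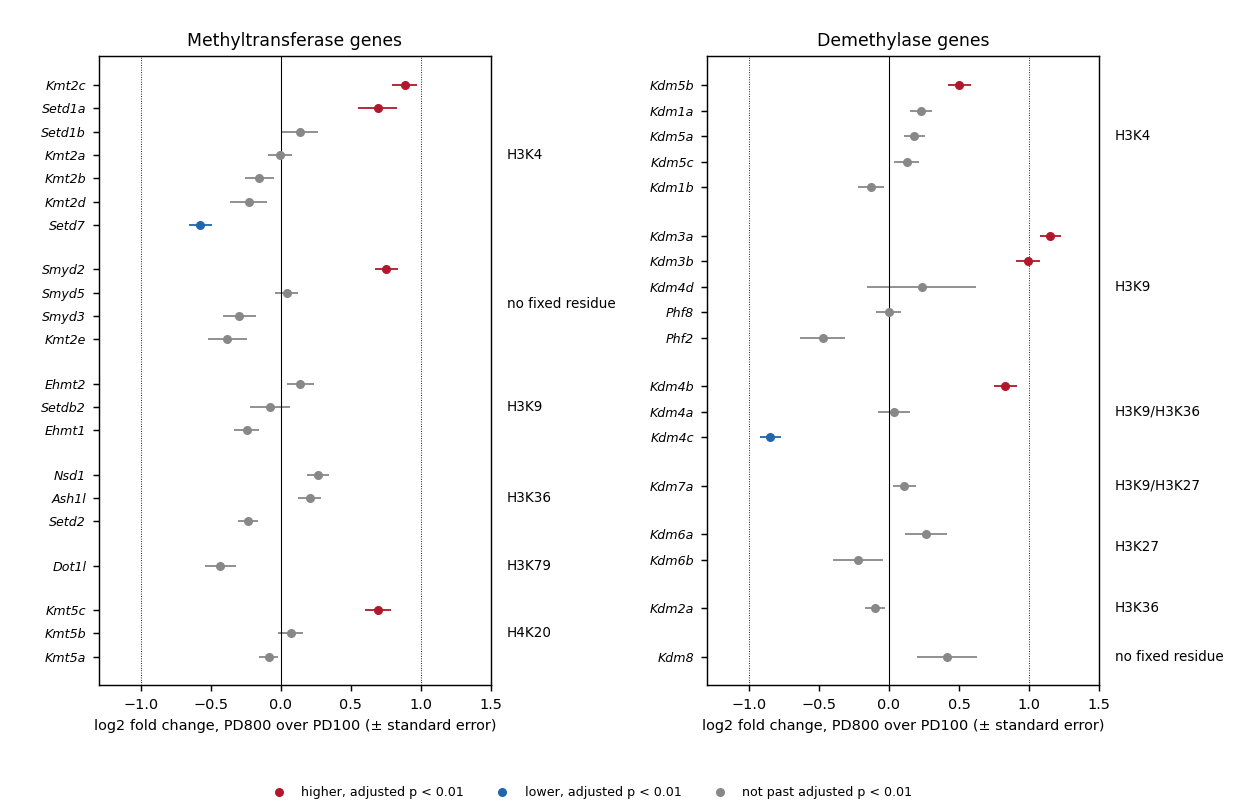
Log2 fold change of PD800 over PD100 (x axis, with standard error) for the 21 methyltransferase and 18 demethylase genes, grouped by the main residue they act on. Red and blue points passed an adjusted p of 0.01, grey points did not, and the dotted lines mark a 2-fold change, which 1 gene (*Kdm3a*) exceeded.

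The writers of H3K4 methylation divided into 2 genes that rose (28.6% of the 7, against 13.1% of all tested genes), 1 that fell (14.3%, against 15.4%) and 4 that did not pass the test. *Kmt2c* encodes MLL3, which places monomethyl marks on enhancers. Its level was 87.2 and 81.7 CPM at PD100 and 165 and 147 CPM at PD800, so that both late libraries lay far above both early ones. It rose by 0.88 ± 0.09 (log2 fold change ± SE, adjusted p = 0.000709). By limma its difference was 0.51 in log2(TPM + 1) and 0.56 in log2(TPM + 0.1), and the call was lost (adjusted p = 0.0301 and 0.0281). Its paralogue *Kmt2d*, which encodes MLL4 with a similar role, was at 69.0 and 72.4 CPM and at 68.2 and 52.3 CPM and did not pass the test (-0.23 ± 0.13, adjusted p = 0.207). *Setd1a*, which encodes the catalytic subunit of a complex that trimethylates H3K4 at promoters, was at 41.5 and 33.9 CPM and at 66.5 and 55.1 CPM. Its groups did not overlap, but the replicates of each group lay apart. It rose by 0.69 ± 0.14 (adjusted p = 0.00866), close to the threshold, and it lost the call without PD800 replicate 1 or 2 (log2 fold changes of 0.55 and 0.82, adjusted p = 0.0557 and 0.0120), with DESeq2's size factors (adjusted p = 0.0101) and without mitochondrial genes (adjusted p = 0.0103). Fitted by limma, its difference was 0.36 in log2(TPM + 1) and 0.42 in log2(TPM + 0.1), neither past the threshold (adjusted p = 0.127 and 0.121). *Setd1a* also shares 3523 exonic bases on its own strand with *Gm49388*, whose mean count was 120 against 1743 for *Setd1a*, so that reads may have been divided between them.

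*Setd7*, which encodes a monomethyltransferase of H3K4 and of many other proteins, was the H3K4 writer that fell. It was at 34.0 and 32.2 CPM at PD100 and at 23.0 and 21.5 CPM at PD800, without overlap. The change was -0.57 ± 0.08 (adjusted p = 0.00254). Without PD800 replicate 1 or 2 the log2 fold change was -0.62 and -0.53, and the call was lost (adjusted p = 0.0229 and 0.0441), as it was by limma in log2(TPM + 1) (-0.64, adjusted p = 0.0186). The other 3 genes of the group, *Kmt2a* (MLL1), *Kmt2b* (MLL2) and *Setd1b*, had log2 fold changes between -0.15 and 0.13 and did not pass. Per length, *Kmt2c* was the most abundant H3K4 writer at PD800, at 12.5 and 10.4 TPM, and the summed level of the 7 genes was 36.1 and 31.9 TPM at PD100 and 36.1 and 30.8 TPM at PD800, so that the sums of the 2 groups overlapped.

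Among the 39 genes, no writer of H3K9, H3K36 or H3K79 methylation (3, 3 and 1 genes) passed the test, which 28.5% of all tested genes did. *Ehmt2* encodes G9a and *Ehmt1* encodes GLP, its partner in a heterodimer that dimethylates H3K9 in euchromatin. *Ehmt2* was at 136 and 154 CPM and at 151 and 168 CPM, with overlap between the groups (0.14 ± 0.10, adjusted p = 0.298). *Ehmt1* was at 78.9 and 90.5 CPM and at 71.2 and 71.8 CPM (-0.24 ± 0.09, adjusted p = 0.0712). *Setdb2*, an H3K9 methyltransferase gene of lower level, had a change of -0.08 ± 0.14.

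Among the H3K36 writers, *Nsd1*, which encodes a dimethyltransferase, was the most abundant at 40.6 and 40.8 TPM at PD100 and 42.2 and 36.9 TPM at PD800. In counts it was at 390 and 403 CPM against 486 and 465 CPM, without overlap (0.26 ± 0.08, adjusted p = 0.0383). *Setd2*, which encodes the main enzyme that trimethylates H3K36, lay the other way, at 220 and 216 CPM against 185 and 185 CPM (-0.24 ± 0.07, adjusted p = 0.0370). Both missed the threshold of 0.01, and on the log2(TPM + 1) scale the difference of *Nsd1* was -0.044. *Ash1l*, another H3K36 dimethyltransferase gene, had a change of 0.20 ± 0.08 (adjusted p = 0.0969). *Dot1l*, which encodes the H3K79 methyltransferase, was at 38.4 and 41.1 CPM and at 32.2 and 26.7 CPM, lower in both late libraries. Its change of -0.43 ± 0.11 (adjusted p = 0.0219) missed the threshold in edgeR and passed it in DESeq2 (adjusted p = 0.00811).

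The 3 writers of H4K20 methylation act in sequence, with *Kmt5a* (SET8) placing the first methyl group and *Kmt5b* and *Kmt5c* (SUV420H1 and SUV420H2) adding further ones, the latter known for pericentromeric and telomeric heterochromatin. *Kmt5c* was at 26.6 and 30.8 CPM at PD100 and at 45.9 and 46.8 CPM at PD800. The late libraries nearly coincided and both exceeded the early ones. *Kmt5c* rose by 0.69 ± 0.09 (adjusted p = 0.00216). Without PD800 replicate 1 or 2 its log2 fold change was 0.71 and 0.68, and the call was lost (adjusted p = 0.0158 and 0.0201). By limma its difference was 0.41 in log2(TPM + 1) and did not pass (adjusted p = 0.0204). *Kmt5b* was at 30.0 and 33.9 CPM and at 33.8 and 33.1 CPM (0.07 ± 0.09). *Kmt5a*, the most abundant of the 3 per length, was at 83.01 and 81.1 CPM and at 77.2 and 77.3 CPM (-0.09 ± 0.07, adjusted p = 0.353).

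Of the 4 methyltransferase genes without a fixed histone residue, *Smyd2* alone passed the test, close to the 28.5% of all tested genes. SMYD2 methylates p53, RB and other proteins besides histones. *Smyd2* was at 23.5 and 25.7 CPM at PD100 and at 40.9 and 41.9 CPM at PD800, without overlap, and rose by 0.75 ± 0.08 (adjusted p = 0.000938). Without PD800 replicate 2 it was at 0.73 (adjusted p = 0.0112), and by limma in log2(TPM + 1) at 0.56 (adjusted p = 0.0116), neither past the threshold. *Kmt2e*, which encodes MLL5, a protein with a SET domain and little known activity, was at 23.2 and 18.6 CPM and at 17.4 and 14.6 CPM (-0.38 ± 0.14, adjusted p = 0.0725). It shares 972 exonic bases with *Srpk2* on the opposite strand, and whether the counting used strand is not given in the sources used here. *Smyd5*, the most abundant of the 4 per length at PD100 (25.8 and 26.7 TPM) but below *Smyd2* at PD800 (21.4 and 20.6 against 21.7 and 21.7 TPM), had nearly equal levels of 66.2, 59.7, 65.8 and 63.8 CPM in the 4 libraries (0.04 ± 0.08). *Smyd3* had a change of -0.30 ± 0.12 (adjusted p = 0.0863).

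**Figure D2:**
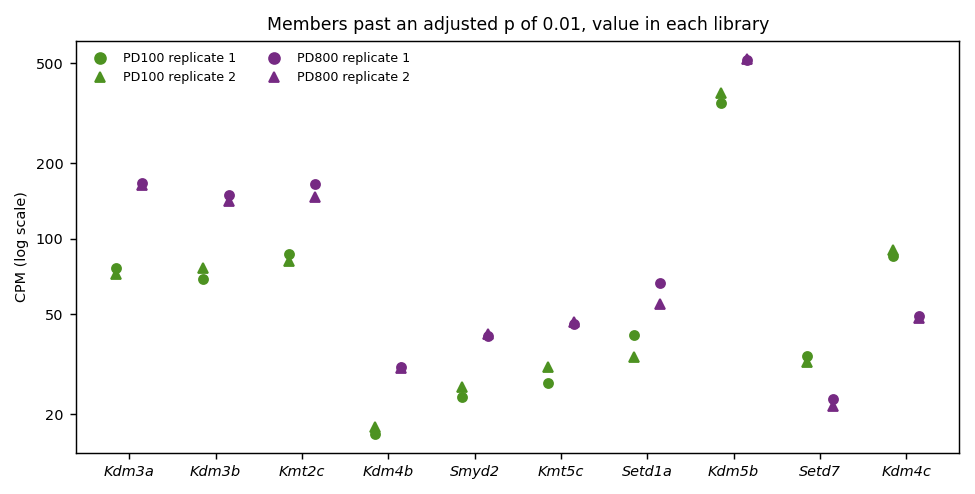
CPM (log axis) of the 10 methylation genes that passed an adjusted p of 0.01, with 1 point per library, PD100 in green and PD800 in purple, circles for replicate 1 and triangles for replicate 2. For each gene the 2 groups do not overlap, from *Kdm3a* (76.5 and 72.4 against 167 and 164 CPM) to *Kdm4c* (85.7 and 89.9 against 49.5 and 48.2 CPM).

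The largest rise and the largest fall among the 39 genes were both in JmjC erasers that act on H3K9, *Kdm3a* and *Kdm4c*, and the sequences in front of their start sites are shown because these genes moved in opposite directions. They are the 250 bases before a start of transcription, from RefSeq's promoter table for GRCm38.p6 (the assembly also called mm10), written 5′ to 3′ on the strand of the gene. *Kdm3a* lies on chromosome 6 (71588972 to 71632990, minus strand) and has 3 starts in the table, of which the most upstream is shown, at chr6:71632918-71633167. *Kdm4c* lies on chromosome 4 (74242497 to 74405860, plus strand) and has 2 starts in the table, with the upstream window at chr4:74242247-74242496 and the downstream window at chr4:74251629-74251878. Capitals mark ACGTG or GCGTG on either strand, the core to which hypoxia-inducible factors bind, overlapping matches merged.
Kdm3a: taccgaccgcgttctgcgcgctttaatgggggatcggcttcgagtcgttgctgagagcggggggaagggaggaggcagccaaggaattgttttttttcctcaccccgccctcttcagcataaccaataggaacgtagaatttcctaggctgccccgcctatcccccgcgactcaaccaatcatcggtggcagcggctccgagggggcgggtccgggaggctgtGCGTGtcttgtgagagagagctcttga
Kdm4c upstream: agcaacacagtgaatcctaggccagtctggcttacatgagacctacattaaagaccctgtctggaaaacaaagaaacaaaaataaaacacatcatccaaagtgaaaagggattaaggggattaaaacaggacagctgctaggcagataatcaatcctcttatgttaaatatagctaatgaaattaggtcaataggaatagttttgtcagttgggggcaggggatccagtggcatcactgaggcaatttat
Kdm4c downstream: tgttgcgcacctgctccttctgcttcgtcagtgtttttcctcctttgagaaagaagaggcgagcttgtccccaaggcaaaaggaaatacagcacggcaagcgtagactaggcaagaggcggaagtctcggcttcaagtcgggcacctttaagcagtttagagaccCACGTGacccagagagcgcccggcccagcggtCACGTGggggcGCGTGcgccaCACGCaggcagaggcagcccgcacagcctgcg
The *Kdm3a* window shown held 1 such match and its other windows in the table held 0. *KDM3A* is a known hypoxia-induced gene, but whether hypoxia had a part in any of these changes was not tested. The upstream *Kdm4c* window held none and has no CpG dinucleotide, whereas the downstream window held 6 matches counted on both strands, 2 of CACGTG (the E-box, in which both strands match) among them, and 19 CpG dinucleotides. The core was found in 18 of the 28 methylation genes in the table (64.3%), against 41.5% of the 27025 genes with any window in it. GGGCGG, to which SP1 binds, was found on either strand in 19 of the 28 (67.9%) against 35.4%, and CACGTG in 3 of the 28 (10.7%) against 6.86%. The 27025 genes were not limited to genes tested here, whereas all the methylation genes were tested, and the shares over tested genes were not computed. These are matches of letters and not sites of binding, and the files do not say which start the reads came from.

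*Kdm3a* encodes an eraser of mono- and dimethylated H3K9. It was at 76.5 and 72.4 CPM at PD100 and at 167 and 164 CPM at PD800. The late libraries lay close together and more than 2-fold above the early ones, and the gene rose by 1.15 ± 0.07 (adjusted p = 0.000156), which was the 1 change of the 39 past a fold of 2. *Kdm3b*, which encodes an enzyme with the same targets, was at 69.3 and 76.5 CPM and at 149 and 141 CPM, also without overlap. It rose by 0.99 ± 0.08 (adjusted p = 0.000392).

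The third gene of the KDM3 family, *Jmjd1c*, whose product has a disputed eraser activity, is not among the 39 and was chosen for this comparison after its values were seen. It was at 234 and 214 CPM and at 139 and 130 CPM, and fell by 0.73 on the log2 scale (adjusted p = 0.00109). The median log2 fold change of its 40 nearest tested genes was -0.68, so that *Jmjd1c* lay close to its neighbours, and the shares and the ratio below contain that value. Per length, *Jmjd1c* made up 49.8% and 53.1% of the TPM of the 3 genes at PD100 and 22.1% and 23.0% at PD800, while *Kdm3a* went from 34.3% and 30.7% to 53.0% and 52.1%. The sum of the 3 genes was 64.5 and 61.7 TPM at PD100 and 73.8 and 65.5 TPM at PD800. The log2 ratio of *Kdm3a* to *Jmjd1c* in CPM was -1.61 and -1.57 at PD100 and 0.26 and 0.34 at PD800, a shift many times the spread within a group, although groups of 2 libraries allow no p below 0.333 in an exact permutation test (two-sided).

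The KDM4 genes encode erasers of trimethylated H3K9, and *Kdm4a*, *Kdm4b* and *Kdm4c* also act on H3K36. *Kdm4c* was at 85.7 and 89.9 CPM at PD100 and at 49.5 and 48.2 CPM at PD800, without overlap, and fell by 0.85 on the log2 scale (SE 0.07, adjusted p = 0.000423). *Kdm4b*, on chromosome 17 (56326062 to 56402870), was at 16.7 and 17.9 CPM and at 30.9 and 30.5 CPM. It rose by 0.83 ± 0.08 (adjusted p = 0.000642), nearly the size of the fall of *Kdm4c*. By limma its difference was 0.51 in log2(TPM + 1), and the call was lost (adjusted p = 0.0492). *Kdm4a*, at 56.1 and 69.4 CPM and at 62.8 and 65.6 CPM, had overlapping groups (0.03 ± 0.11).

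The log2 ratio of *Kdm4b* to *Kdm4c* in CPM was -2.36 and -2.33 at PD100 and -0.68 and -0.66 at PD800 (exact permutation p = 0.333, the smallest possible). Per length, *Kdm4c* went from the largest to the second share of the family, with 55.1% and 52.0% of its TPM at PD100 and 33.2% and 33.8% at PD800, when *Kdm4a* had 39.3% and 42.5%. *Kdm4d*, which lacks the H3K36 activity, was low at 0.297, 0.300, 0.417 and 0.280 CPM and did not pass the test (0.23 ± 0.39, adjusted p = 0.660). The summed level of *Kdm4a*, *Kdm4b* and *Kdm4c* was 33.0 and 32.6 TPM at PD100 and 24.9 and 23.3 TPM at PD800, whereas that of the 5 erasers of H3K9 alone (*Kdm3a*, *Kdm3b*, *Kdm4d*, *Phf8* and *Phf2*) was 40.5 and 35.9 TPM and then 63.2 and 56.0 TPM. On the TPM scale the median log2 ratio of all tested genes was -0.25, and these sums are to be read against it. They leave out *Jmjd1c*, which was at 32.1 and 32.7 TPM at PD100 and at 16.3 and 15.1 TPM at PD800.

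**Figure D3:**
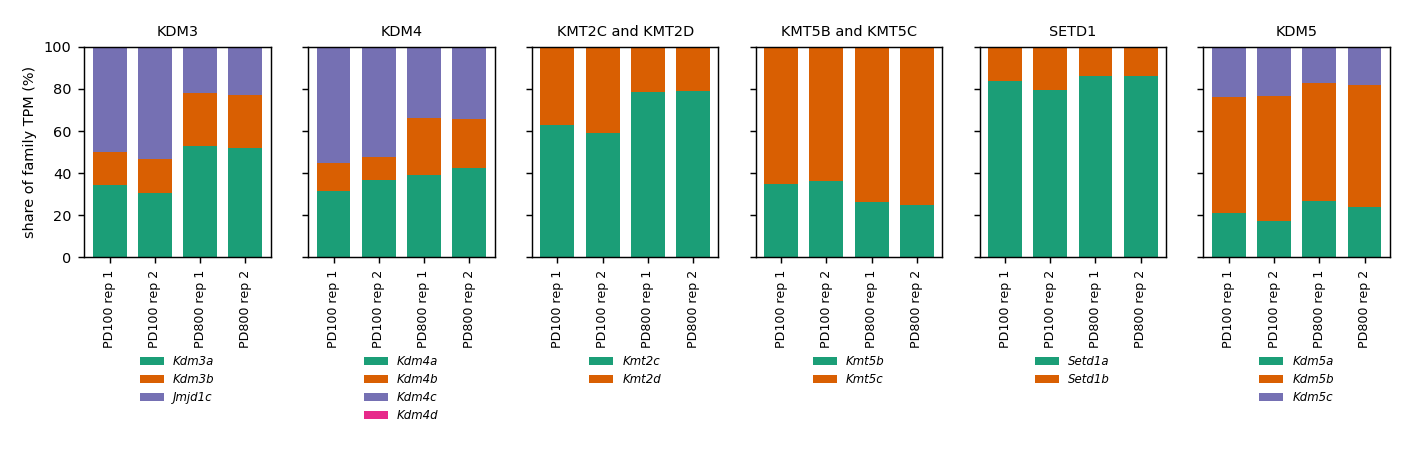
Share of the summed TPM of a family (y axis, percent) held by each paralogue in each of the 4 libraries, for 6 families of methylation enzymes. In KDM3 the share of *Jmjd1c* is 49.8% and 53.1% at PD100 and 22.1% and 23.0% at PD800, and in KDM4 that of *Kdm4c* is 55.1% and 52.0% and then 33.2% and 33.8%.

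*Phf2* and *Phf8* encode PHD finger erasers of H3K9. *Phf2* was low, at 6.94 and 7.19 CPM and at 5.76 and 4.39 CPM, with a change of -0.47 ± 0.16 that did not pass (adjusted p = 0.0571). *Phf8*, on the X chromosome, had a change of -0.0028 ± 0.092. *Kdm7a*, an eraser gene for H3K9 and H3K27, was at 21.7, 21.03, 23.8 and 22.3 CPM in the 4 libraries and did not pass (0.11 ± 0.08).

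The 5 erasers of H3K4 methylation included the most abundant genes of all 39 and 1 that passed the test (20%, against 28.5% of all tested genes). *Kdm1a* encodes LSD1, which removes mono- and dimethyl marks, and had the highest mean level per length, at 64.1, 61.7, 63.6 and 61.4 TPM. Its counts were 215 and 231 CPM at PD100 and 258 and 265 CPM at PD800 (0.23 ± 0.08, adjusted p = 0.0578). *Kdm5b* encodes an eraser of trimethylated H3K4 and was next in level, at 51.2 and 58.3 TPM and at 62.4 and 61.7 TPM, and at PD800 the values of *Kdm1a* and *Kdm5b* overlapped.

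*Kdm5b* was at 348 and 379 CPM at PD100 and at 513 and 518 CPM at PD800, without overlap. It rose by 0.50 ± 0.08 (adjusted p = 0.00466), the smallest change among the 10 that passed, and without PD800 replicate 1 or 2 the log2 fold change was 0.51 and 0.50, with the call lost (adjusted p = 0.0723 and 0.0741). Fitted by limma, its difference was 0.18 in log2(TPM + 1) and 0.18 in log2(TPM + 0.1), neither past the threshold (adjusted p = 0.209 and 0.213). Its paralogue *Kdm5c*, on the X chromosome, was at 136 and 155 CPM and at 156 and 162 CPM (0.13 ± 0.09). *Kdm1b*, which encodes LSD2, was the lowest of the 5 in fold change, at 24.9 and 21.9 CPM and at 21.1 and 21.7 CPM (-0.13 ± 0.09, adjusted p = 0.321).

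*Kdm5a*, the third KDM5 gene, differed in the length of its transcripts more than in its count. The gene lies on chromosome 6 (120364124 to 120444574), and its 9 annotated transcripts in GENCODE M21 are a protein-coding one of 10944 bases and 8 others of 460 to 3665 bases, most of them with a retained intron or marked for nonsense-mediated decay and 1 also protein-coding. RSEM gives each gene a mean transcript length, weighted by the estimated share of each transcript, and for *Kdm5a* it was 4165 and 4601 bases at PD100 and 2696 and 2926 bases at PD800. The groups did not overlap, and the log2 ratio was -0.64. The count was 99.5 and 107 CPM and then 117 and 117 CPM, and did not pass the test (0.18 ± 0.08, adjusted p = 0.102), whereas the level per length went from 19.3 and 16.9 TPM to 29.7 and 25.8 TPM.

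This measure was chosen after its values were seen and carries no test. Of the 39 genes, *Kdm5a* was the 1 whose mean transcript length did not overlap between the groups and moved by more than 0.5 on the log2 scale, against 1.27% of all tested genes. Lengths that merely did not overlap were seen for 13 of the 39 genes and for 24.1% of all tested genes. *Kdm5a* shares 251 exonic bases on the opposite strand with *Ccdc77*. The shares of single transcripts were not analysed here.

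**Figure D4:**
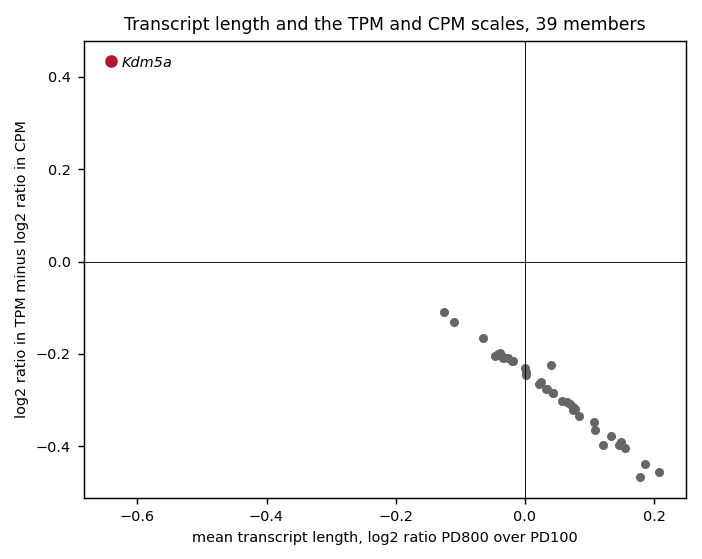
Change in mean transcript length (x axis, log2 ratio of PD800 over PD100) against the difference between the log2 ratios in TPM and in CPM (y axis), with 1 point per gene for the 39 methylation genes. *Kdm5a*, in red, lies at a length ratio of -0.64, far from the other 38 points, for which the TPM ratio lies below the CPM ratio.

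The remaining erasers did not pass the test. *Kdm6a* (UTX) and *Kdm6b* (JMJD3) encode the erasers of H3K27 methylation. *Kdm6a* was at 66.6 and 48.1 CPM and at 70.3 and 67.6 CPM, with PD100 replicate 2 below the other 3 libraries (0.26 ± 0.15, adjusted p = 0.210). Its log2 fold change was 0.52 (adjusted p = 4.74e-05) without PD100 replicate 1 and 0.029 (adjusted p = 0.747) without PD100 replicate 2. *Kdm6b* was at 10.1 and 8.63 CPM and at 9.29 and 6.76 CPM, with overlap (-0.22 ± 0.18). *Kdm2a*, which encodes an H3K36 eraser that binds unmethylated CpG islands, was at 104 and 102 CPM and at 95.9 and 95.6 CPM (-0.10 ± 0.07, adjusted p = 0.291). *Kdm8*, a JmjC gene whose histone activity is disputed, was low at 2.82, 2.10, 3.51 and 3.08 CPM (0.42 ± 0.21, adjusted p = 0.161).

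The Y-linked paralogues of *Kdm6a* and *Kdm5c* were low in every library. *Uty* was at 3.0 and 3.83 CPM at PD100 and at 0.334 and 0.311 CPM at PD800 (-3.39 ± 0.27, adjusted p = 0.000307). *Kdm5d* was at 0.471 and 0.479 CPM and at 0.223 and 0.280 CPM (-0.91 ± 0.36, adjusted p = 0.0808). The other 7 tested genes of the Y chromosome had a median log2 fold change of -2.59 beside *Uty* and of -3.39 beside *Kdm5d*.

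Writers and erasers gave 5 calls each, 23.8% of the writers and 27.8% of the erasers, both near the 28.5% of all tested genes. Of the 21 writers, 4 rose and 1 fell, and their median change was -0.0075 on the log2 scale. Of the 18 erasers, 4 rose and 1 fell, and their median change was 0.15, while that of all tested genes was 0.01. The summed level of the writers was 299.5 and 297.9 TPM at PD100 and 272 and 259 TPM at PD800, and that of the erasers was 274 and 264 TPM and then 298 and 280 TPM. Thus the listed writers summed to more than the listed erasers in both early libraries and to less in both late ones. On this scale the median of all tested genes moved by -0.25. The order depends on the genes counted. Other lysine methyltransferase genes summed to 133 and 136 TPM at PD100 and 146 and 135 TPM at PD800. Other JmjC genes summed to 118 and 123 TPM and then 81.9 and 82.2 TPM. Among the erasers, *Kdm5a* went from 19.3 and 16.9 TPM to 29.7 and 25.8 TPM, while its count did not pass the test.

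The genomic surroundings of the 10 genes were read from the 40 nearest tested genes of each. *Setd1a*, on chromosome 7 (127776670 to 127800122), had a log2 fold change of 0.69 while the median of its neighbours was 0.71, so that it did not stand above them. For *Kdm3b* the neighbours had a median of 0.52 against 0.99 for the gene. The other 8 genes differed from their neighbours in the direction of their own change, as did *Kdm3b*, the gap being widest for *Kdm3a*, with a neighbour median of 0.10, and narrowest for *Setd7*, whose neighbours had a median of -0.26, in the same direction as the gene. *Kdm5b*, on chromosome 1 (134560171 to 134635285), had neighbours at -0.21. No gene of the 39 lay within 5 Mb of the distal end of its chromosome, taken as the end of the last annotated gene. Near the other end, *Kmt5c* began at base 4740115 of chromosome 7. On chromosome 19, *Kmt5b* began at base 3767421 and *Kdm2a* at base 4314419. Of the genes that passed, *Smyd2* shares 814 exonic bases with *Gm37422*, *Kmt2c* 274 with *Gm42585*, *Kdm3b* 3468 with *Gm26538*, *Setd7* 131 with *5031434O11Rik* and *Setd1a* 29 with *9430064I24Rik*, besides its overlap with *Gm49388* on its own strand. These 5 partners lie on the opposite strand and had lower mean counts (161, 100.2, 30.5, 11.5 and 53.8).

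The partners and relatives of these enzymes, taken from textbook lists, numbered 65 tested genes. Of these, 16 were higher and 13 lower (44.6% in all), against the 28.5% of all tested genes, of which 13.1% were higher and 15.4% lower. Of 14 subunits of the H3K4 writer complexes, 5 rose (35.7%) and 1 fell (7.14%), and the core shared by all these complexes did not move together. *Wdr5* was at 105 and 112 CPM at PD100 and at 219 and 222 CPM at PD800 (1.02 ± 0.07, adjusted p = 0.000240), and *Rbbp5* rose by 0.77 ± 0.07. *Ash2l*, which stimulates the catalytic subunit, was at 372 and 392 CPM and at 182 and 197 CPM (-1.01 ± 0.08, adjusted p = 0.000360), and the median of its 40 neighbours was -0.59. *Dpy30*, the fourth core subunit, was at 71.3 and 68.3 CPM and at 70.2 and 69.6 CPM (0.0023 ± 0.072). *Rbbp5* and *Dpy30* were chosen here after their values were seen.

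Of 11 partners of LSD1 and LSD2, 3 rose (27.3%) and 2 fell (18.2%), against 13.1% and 15.4% of all tested genes, while *Kdm1a* itself did not pass the test. *Zmym3* rose by 1.42 ± 0.08, from 27.3 and 28.4 CPM to 73.9 and 75.4 CPM. *Rcor1*, which encodes the CoREST scaffold of LSD1, rose by 1.10 ± 0.08, from 31.6 and 29.0 CPM to 65.9 and 63.7 CPM, and the median of its 40 neighbours was 0.85. None of 3 partners of G9a and GLP and 1 of 4 partners of DOT1L passed (*Mllt10*, 0.75), against 28.5% of all tested genes. Among 3 partners of H3K36 methylation, 1 rose and 1 fell (33.3% each, against 13.1% and 15.4% of all tested genes): *Iws1*, which recruits SETD2 to elongating polymerase, rose by 1.15 ± 0.07, and *Supt6* fell by 0.67 on the log2 scale.

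Of 7 genes that supply or clear the cofactors of methylation, 1 rose (14.3%) and 2 fell (28.6%), against 13.1% and 15.4% of all tested genes. *Idh2*, which makes 2-oxoglutarate in mitochondria, was at 55.3 and 68.5 CPM and at 128 and 131 CPM (1.06 ± 0.11, adjusted p = 0.000864). *Ahcy*, which clears S-adenosylhomocysteine, fell by 0.75 on the log2 scale, and *Tdh*, whose threonine breakdown feeds S-adenosylmethionine in mouse embryonic stem cells, fell by 0.39.

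Among 15 other lysine methyltransferase genes tested, 5 rose (33.3%) and 3 fell (20%), against 13.1% and 15.4% of all tested genes. *Setdb1*, which trimethylates H3K9 at retroviral repeats, rose from 117 and 122.5 CPM to 207 and 207 CPM (0.79 ± 0.07, adjusted p = 0.000494). *Suv39h1* (-0.13 ± 0.09) and *Suv39h2* (-0.30 ± 0.10, adjusted p = 0.0463), which encode enzymes that trimethylate H3K9 at pericentromeres and telomeres, did not pass, nor did *Ezh2*, the H3K27 writer gene (0.18 ± 0.10). *Nsd2*, a relative of *Nsd1*, fell by 0.78 on the log2 scale, and *Ezh1*, a relative of *Ezh2*, fell by 1.03. *Smyd1* (2.89), *Setmar* (2.0) and *Prdm16* (1.74) had the largest rises of the list from low levels, with at most 10.6 CPM in any library. Of 8 other JmjC genes, none rose and 4 fell (50%, against 15.4% of all tested genes), namely *Uty*, *Jmjd1c*, *Hr* and *Kdm2b*, the paralogue of *Kdm2a* (-0.46 ± 0.08, adjusted p = 0.00497). *Hr*, named after its values were seen, fell by 0.92 on the log2 scale. The median of the 40 neighbours was -0.68 for *Jmjd1c* and -0.97 for *Hr*, near the genes' own values, and 0.15 for *Kdm2b*, while *Uty* is given above beside the other genes of its chromosome.

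**Figure D5:**
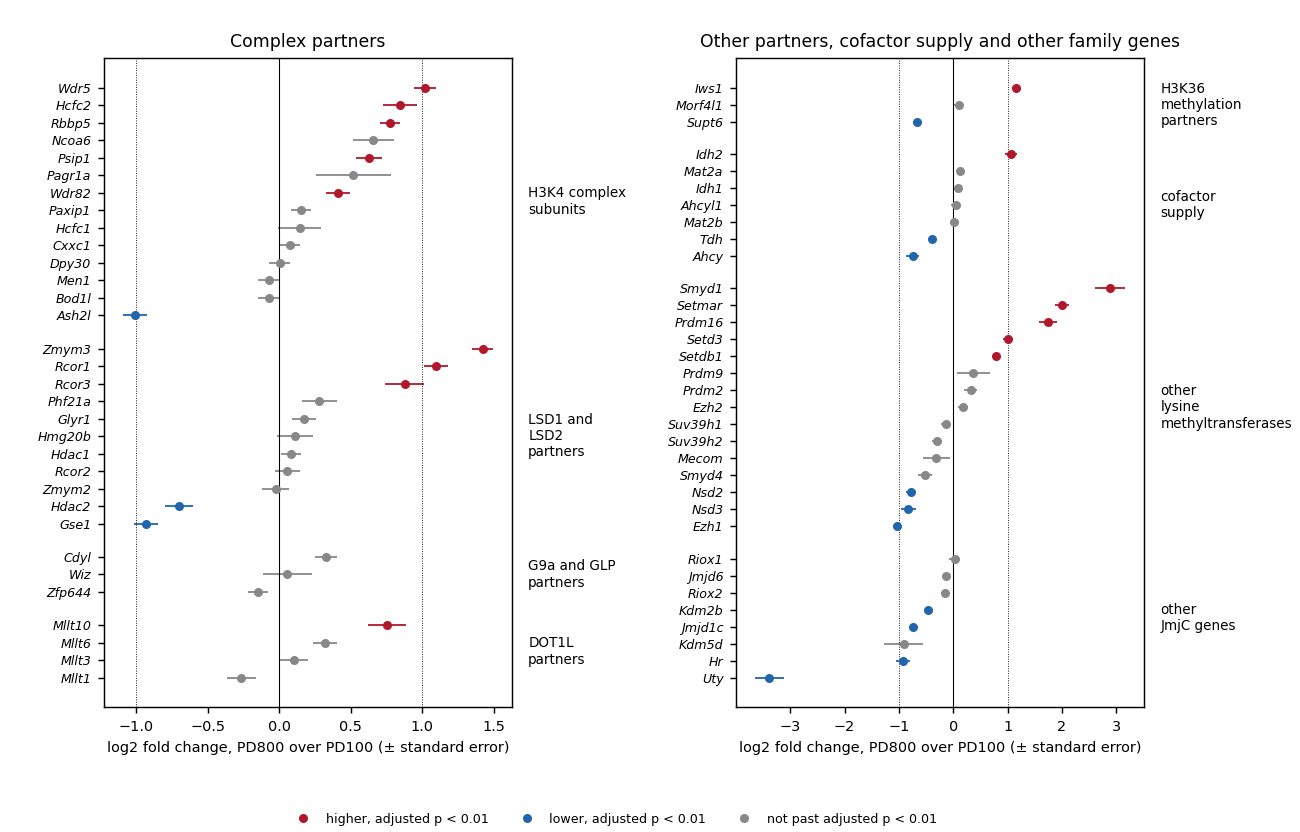
Log2 fold change of PD800 over PD100 (x axis, with standard error) for the 65 tested partners and relatives of the methylation enzymes, by list, in the colours used for the enzymes. *Wdr5* (1.02) and *Ash2l* (-1.01), of the same core complex, lie on opposite sides, and 4 of the 8 other JmjC genes are blue and none is red.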

How the data were processed

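RNA of PD100 and PD800 cells (2 libraries each, grouped by the labels) was analysed from the deposited gene tables. The authors aligned reads to mm10 with STAR 2.5.3a and deposited RSEM 1.3.0 expected counts, which are not scaled for depth and divide reads that align to several genes, and TPM values, scaled for length and to a common total. The annotation release is not given in the sources used here, and GENCODE M21, which held 53274 of the 53379 gene identifiers, gave coordinates.

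Expected counts were rounded and tested by edgeR 4.0.16 under R 4.3.3, keeping genes that filterByExpr passed at min.count 10, scaling by TMM, and adjusting the quasi-likelihood p over 19148 genes by Benjamini-Hochberg. CPM used the library totals over the tested genes multiplied by the TMM factors. Over all genes the totals were 32454121 to 38492149 counts. A gene passed at an adjusted p under 0.01. In counts simulated for this comparison over 19148 genes, 38 of 44 genes raised by 1 on the log2 scale passed. The simulation gave all genes and both groups the same dispersion (0.0136). In the data, replicates differed more at PD100 than at PD800 (chi-square per degree of freedom of 64.1 and 9.74). The simulated share is therefore not the power of the test in these data. Alternatives were DESeq2 1.42.0, its size factors, upper-quartile scaling, no mitochondrial genes, other filters, a replicate block, limma 3.58.1 on log2(TPM + 1) and log2(TPM + 0.1), and each library left out.

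The members and lists were chosen with earlier results of these data known. Values per library were given for members past the test, and for those of highest TPM and of highest and lowest fold change in each residue group. From the lists, genes past the test with a fold over 2 (at most 4 per list) and named relatives were given.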

Additional observations from a re-analysis of the deposited data

How the results depend on the processing

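Of the 10 genes that passed, *Kdm3a*, *Kdm3b* and *Kdm4c* passed under all 13 alternatives of the test, and *Kmt2c* and *Kdm4b* under all but both TPM settings. With limma on log2(TPM + 1) or log2(TPM + 0.1), 2 genes were higher and 1 lower, with a fold over 2 there were 0 higher and 1 lower, and calls over all tested genes were 712 higher and 2327 lower, or 706 and 2410, against 2513 and 2943 by edgeR. The share of higher calls was thus 23.4% or 22.7%, against 46.1%. The median log2 difference of all tested genes was then -0.12 or -0.21, that of the 39 genes -0.21 or -0.22, of writers -0.29 or -0.32 and of erasers -0.11 or -0.14. Without the low-count filter 4 genes were lower, and with upper-quartile scaling 2 were higher with a fold over 2. Same-numbered libraries share only a number: with the replicate block 8 genes were higher and 4 lower, *Dot1l* (adjusted p = 0.00282) and *Kmt2e* (0.00347) being added, calls over all genes were 3854 higher and 4125 lower, and the pairs' deviations correlated at 0.265.

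Leaving out 1 library gave 4 to 10 genes higher, 1 to 5 lower, 1 to 2 higher with a fold over 2, and medians of -0.077 to 0.058 for writers, 0.11 to 0.19 for erasers and 0.02 to 0.10 for all 39, with 1175 to 3994 higher and 1478 to 4193 lower calls over all genes. An arm left with 1 library was assumed to vary like the other. The log2 ratio of *Kdm5a* transcript length was -0.71 to -0.57, an alternative added after the data were seen.

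No gene that passed changed direction in any setting. Directions that turned were of genes that did not pass. On the TPM scales (+ 1, then + 0.1) these were *Setd1b* (-0.039, -0.071), *Ehmt2* (-0.059, -0.060), *Ash1l* (-0.0035, -0.0044), *Nsd1* (-0.044, -0.045), *Kmt5b* (-0.22, -0.25), *Smyd5* (-0.31, -0.32), *Kdm1a* (-0.0097, -0.0098), *Kdm5c* (-0.21, -0.22), *Kdm4a* (-0.16, -0.18), *Kdm4d* (-0.00018, -0.0060), *Kdm7a* (-0.11, -0.16) and *Kdm6a* (-0.10, -0.11). With upper-quartile scaling they were *Kmt2a* (0.0053) and *Phf8* (0.010). Leaving out 1 library turned *Kmt2a* (-0.087 to 0.067), *Setd1b* (-0.021 to 0.27), *Setdb2* (-0.28 to 0.13), *Kmt5b* (-0.014 to 0.14), *Smyd5* (-0.052 to 0.12), *Kdm4a* (-0.11 to 0.17), *Kdm4d* (-0.090 to 0.48) and *Phf8* (-0.12 to 0.10). The cause was not tested.

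With 2 libraries per group, small changes of low genes such as *Kdm4d* and *Kdm8* could not be resolved.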
